A study of Sus scrofa with 6 samples.

Results

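The genes described here encode the proteasome and its regulators in single pig oocytes. Members were all genes whose pig symbol, found through the NCBI gene ID of the files, begins with PSM, a letter from A to G and a digit. The pattern found 44 of 19300 genes, of which 43 belong to the proteasome system and 1, PSMC3IP, shares the prefix only. Symbols of this pattern in the reference table numbered 49. PSMB2, PSMB8, PSMB11, PSMC4 and PSMD10 matched no gene ID and were not analysed here.

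The study sequenced RNA from 3 BCB-positive and 3 BCB-negative pig oocytes, each library being a single oocyte. Oocytes with active glucose-6-phosphate dehydrogenase turn the dye brilliant cresyl blue (BCB) colourless. BCB-positive oocytes keep the blue colour and are usually regarded as having finished growth, while BCB-negative oocytes lose it and are usually regarded as still growing. Both classes were at the germinal vesicle stage, before meiosis resumes, had not been cultured for maturation, and came from antral follicles of 3 to 6 mm with at least 3 layers of cumulus cells. Neither genotype, breed nor age was given, and no animal was named for any oocyte.

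Because each library is 1 cell and no animal or culture is named, a class counts as 1 sample made of 3 cells, and no test between classes was made. Levels are FPKM, fragments per kilobase of transcript, scaled to the mapped fragments of the library. They are set side by side between genes below as descriptions. The cDNA was primed with poly(dT) and amplified by PCR, with no molecular identifiers named. How far that shifts levels, ratios and shares between genes was not tested. A difference is the mean log2(FPKM + 1) of BCB-positive oocytes minus that of BCB-negative oocytes, and the SD beside it pools the spread of the 3 oocytes within each class, on that scale. A gene was called ordered where the classes did not overlap. FPKM is relative within a library, so the amount of RNA per oocyte is not seen in it.

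The proteasome is the protease that degrades ubiquitin-tagged proteins. Its core particle is a barrel of 4 stacked rings, with outer rings of alpha subunits that gate the entry and inner rings of beta subunits, some of which hold the proteolytic sites. A regulatory particle on the barrel's end uses a ring of ATPases to unfold substrates, and non-ATPase subunits to bind and remove ubiquitin. In oocytes, proteasomal degradation of cyclin B and securin is needed for meiosis to proceed.

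The libraries held 7820374, 8192732 and 9238987 expected counts in BCB-positive oocytes 1, 2 and 3, and 7620913, 7668881 and 7122749 in BCB-negative oocytes 1, 2 and 3. The 44 genes took 0.498%, 0.506% and 0.571% of these counts in BCB-positive oocytes, against 0.526%, 0.438% and 0.450% in BCB-negative oocytes. BCB-positive oocyte 3 stood apart from the other libraries, with a mean Pearson correlation across 11495 genes of 0.874 with the rest, where the other oocytes had 0.905 to 0.915. Its FPKM values summed to 668430, against 784781 to 811744 in the other 5. Oocyte markers summed over 12 genes to between 15655 and 29490 FPKM in BCB-positive oocytes and between 20804 and 31621 FPKM in BCB-negative oocytes. ZP3 and ZP4 gave the largest parts of that sum in every oocyte, and not every marker was high. NLRP5 averaged 1.34 FPKM in BCB-positive and 0.77 FPKM in BCB-negative oocytes, and DAZL 3.39 and 2.21 FPKM. The oocytes had been stripped of cumulus cells, and of 12 cumulus and granulosa markers 9 were in the files and summed to 28.6 to 38.3 FPKM in BCB-positive oocytes and 20.2 to 31.2 FPKM in BCB-negative oocytes, most of it INHBA. HSD17B1, with 2.25, 1.64 and 1.78 FPKM in BCB-positive oocytes and 0.15, 1.31 and 0.16 FPKM in BCB-negative oocytes, was ordered. STAR, with a mean of 1.25 FPKM in BCB-positive and 0.19 FPKM in BCB-negative oocytes, was ordered too. Of the 9, INHBA and HSD17B1 alone reached a mean of 1 FPKM over the 6 oocytes, so STAR lay outside the 11495 genes. INHA averaged 0.83 FPKM in BCB-positive and 0.36 FPKM in BCB-negative oocytes, and AMH 0.37 and 0.05 FPKM, both with overlap. All 9 averaged higher in BCB-positive oocytes, and PTX3 and TNFAIP6 were listed in BCB-positive oocyte 1 alone. CYP19A1 and CYP11A1 were at most 0.18 FPKM in any oocyte, and the part of follicle cells in the proteasome values was not tested. In the reference annotation 10 of the 44 genes overlap another gene, and reads of such pairs may not be told apart.

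Proteasome mRNAs were abundant in both classes, and their levels differed far more between subunits than between classes. Of the 44 genes, 15 averaged at least 100 FPKM over the 6 oocytes, 22 lay between 10 and 100 FPKM and 7 lay below 10 FPKM. A mean of at least 1 FPKM was reached by 41 members, whose median level was 71.2 FPKM, against 8.98 FPKM over all 11495 genes with such a mean. The order of the members was much the same in every oocyte. The mean Spearman correlation of a BCB-positive oocyte with the other 5 across the 44 genes was 0.947, 0.940 and 0.900, and that of a BCB-negative oocyte was 0.945, 0.935 and 0.944. These are descriptions across genes, with gene length and library depth shared.

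**Figure D1:**
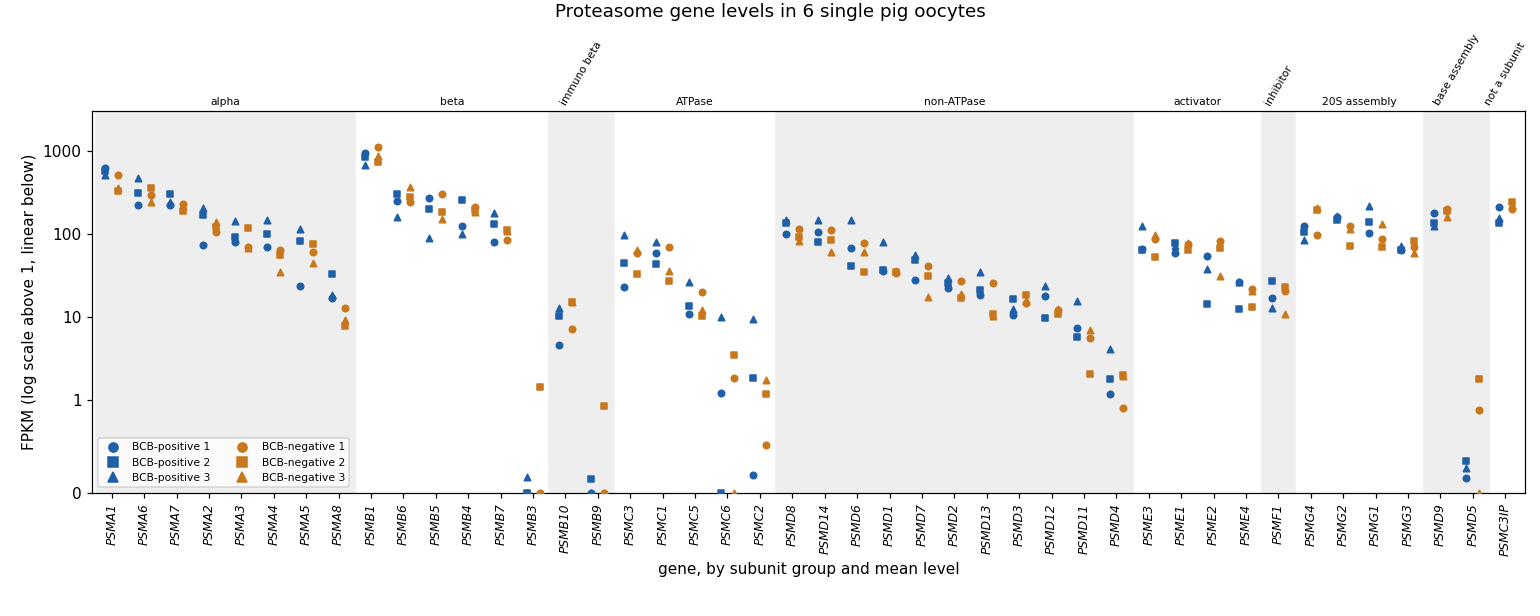
FPKM of each of the 44 genes (vertical axis, log scale above 1 and linear below) in 3 BCB-positive oocytes (blue, left) and 3 BCB-negative oocytes (orange, right), with genes grouped by role. Levels run from a mean of 858.5 FPKM for PSMB1 to near 0 for PSMB3, PSMB9 and PSMD5, while the classes overlap for all genes but PSMA8, PSMA4 and PSMG2.

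Among the 41 members compared, PSMA8, PSMA4 and PSMG2 were ordered and at least 1.5-fold higher in BCB-positive oocytes, and 0 members were ordered and lower. The same rule was met by 5.75% of all 11495 genes in the higher and 2.66% in the lower direction, and 3 of 41 members is 7.32%, near that background. Ordered at any size were the same 3 members higher and 0 lower, against 7.44% and 4.03% of all genes. A difference of at least 1.5-fold, ordered or not, was seen for 7 members higher and 2 lower, against 18.9% and 9.46% of all genes. The median difference of the members was 0.27, against 0.11 over all genes, and 28 members (68.3%) had a difference above 0 and 13 below, where 58% of all genes lay above 0. For 15 of the 41 the difference was larger than the SD between oocytes, as it was for 32.4% of all genes. Without BCB-positive oocyte 3 the median difference was 0.01, against 0.05 over all genes, and members were split into 21 above and 20 below 0. PSMA8, PSMA4, PSMG2 and PSMA1 met the rule without that oocyte and 0 members met it in the lower direction, against 7.19% and 4.40% of all genes. Leaving out BCB-positive oocyte 1 instead gave 10 members higher and 1 lower, against 13.7% and 6.92% of all genes.

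**Figure D2:**
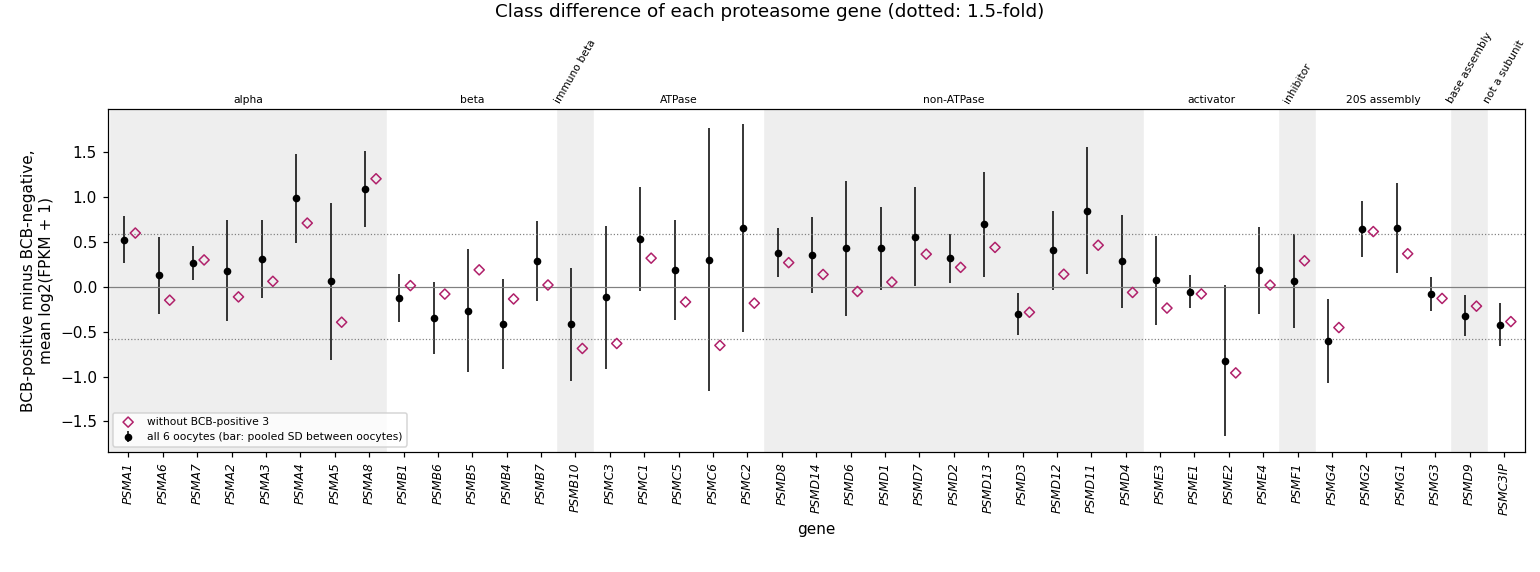
BCB-positive minus BCB-negative difference of mean log2(FPKM + 1) for the 41 members with a mean of at least 1 FPKM, with all 6 oocytes (black, bar the pooled SD between oocytes) and without BCB-positive oocyte 3 (open diamonds). Dotted lines mark 1.5-fold. The median is 0.27 with all oocytes and 0.01 without that oocyte, and PSMA8 and PSMA4 lie highest.

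The alpha subunits form the outer rings. All 8 alpha genes had a difference above 0, with a median of 0.29, and 5 of the 8 lay above 0 without BCB-positive oocyte 3, with a median of 0.18. Their summed FPKM was 1327, 1656 and 1852 in BCB-positive oocytes, against 1342, 1249 and 1110 in BCB-negative oocytes, so the classes overlapped through BCB-positive oocyte 1.

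PSMA8 had the largest difference of any member. It encodes a germ-cell paralogue of PSMA7, known in mouse from the proteasome of spermatocytes. PSMA8 measured 17.1, 32.9 and 18.5 FPKM in BCB-positive oocytes and 12.97, 7.76 and 9.15 FPKM in BCB-negative oocytes. The classes did not overlap, and BCB-positive oocyte 2 was the highest. The difference was 1.09 (SD 0.43), and 1.21 without BCB-positive oocyte 3.

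PSMA8 rested on 152, 290 and 187 expected counts in BCB-positive oocytes, against 111, 67 and 52 in BCB-negative oocytes. From CPM, counts scaled to library depth with no length correction, its difference was 1.22. Its gene counts were whole numbers in every oocyte, and so were those of PSMA7.

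PSMA7, the subunit at the same place in the ring in most cells, was far more abundant, with 223, 300.4 and 241 FPKM in BCB-positive oocytes and 229.6, 188 and 215 FPKM in BCB-negative oocytes. The classes overlapped, with a difference of 0.27 (SD 0.19). As a share of PSMA7 plus PSMA8, PSMA8 made up 7.13%, 9.88% and 7.11% in BCB-positive oocytes, against 5.35%, 3.97% and 4.09% in BCB-negative oocytes. The share was ordered too, but it was computed after the values were seen and rests on the same PSMA8 values.

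PSMA4, another alpha subunit, measured 69.5, 98.3 and 148 FPKM in BCB-positive oocytes and 64.4, 55.8 and 34.9 FPKM in BCB-negative oocytes. Its order was narrow, since BCB-positive oocyte 1 and BCB-negative oocyte 1 were close. The difference was 0.99 (SD 0.50), and 0.71 without BCB-positive oocyte 3.

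PSMA1 was the most abundant alpha gene, with 615, 572 and 509 FPKM in BCB-positive oocytes and 511, 326 and 359 FPKM in BCB-negative oocytes. BCB-positive oocyte 3 lay just inside the BCB-negative range, and the difference was 0.53 (SD 0.26). PSMA5 had the smallest alpha difference, 0.06 (SD 0.87), with 23.8, 82.4 and 116 FPKM in BCB-positive oocytes and 60.2, 75.7 and 44.4 FPKM in BCB-negative oocytes. The lowest and the highest PSMA5 values both belonged to BCB-positive oocytes. PSMA2, PSMA3 and PSMA6 overlapped between classes, with differences of 0.18, 0.31 and 0.13.

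**Figure D3:**
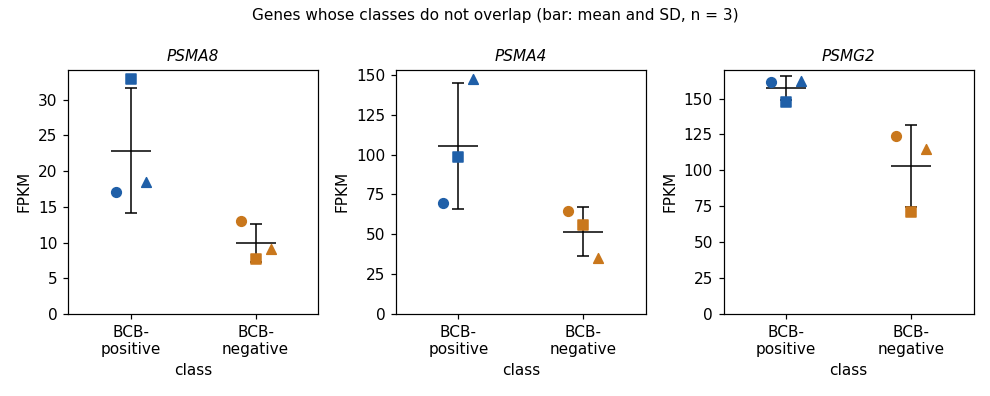
FPKM of PSMA8, PSMA4 and PSMG2 in each BCB-positive (left) and BCB-negative (right) oocyte, with the class mean and SD (n = 3). In each panel every BCB-positive point lies above every BCB-negative point, by a small margin for PSMA4.

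The beta subunits, which form the inner rings, leaned the other way. Of the 5 compared, 4 had a difference below 0, with a median of -0.27. Their summed FPKM, PSMB3 included, was 1665, 1732 and 1198 in BCB-positive oocytes and 1922, 1505 and 1671 in BCB-negative oocytes. Without BCB-positive oocyte 3 the median was 0.01 and 2 of the 5 lay below 0. None of the 5 was ordered or differed by more than the SD between oocytes.

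PSMB1, a structural beta subunit, was the most abundant member with 941, 847 and 674 FPKM in BCB-positive oocytes and 1091, 737 and 861 FPKM in BCB-negative oocytes. The classes overlapped, with a difference of -0.12 (SD 0.27). PSMB4, also structural, measured 124, 253 and 98.4 FPKM in BCB-positive oocytes and 209, 194 and 184 FPKM in BCB-negative oocytes. BCB-negative oocytes were tightly grouped and lay inside the wider BCB-positive range, with a difference of -0.42 (SD 0.50).

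The catalytic sites of the core lie in PSMB5, PSMB6 and PSMB7. PSMB5, which cleaves after hydrophobic residues and is the main target of the drug bortezomib, measured 273, 196 and 88.9 FPKM in BCB-positive oocytes and 299, 184 and 151 FPKM in BCB-negative oocytes. PSMB6, which cleaves after acidic residues, measured 247, 302 and 158 FPKM in BCB-positive oocytes and 239.7, 276 and 365 FPKM in BCB-negative oocytes. Both had their lowest value in BCB-positive oocyte 3, and their differences were -0.27 (SD 0.68) and -0.34 (SD 0.40).

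PSMB7, which cleaves after basic residues, went the other way in that oocyte, with 79.2, 132 and 179 FPKM in BCB-positive oocytes against 83.9, 112 and 109 FPKM in BCB-negative oocytes. Its difference was 0.29 (SD 0.45), and 0.02 without BCB-positive oocyte 3. The 3 catalytic genes together summed to 599.7, 631 and 426 FPKM in BCB-positive oocytes and to 623, 573 and 626 FPKM in BCB-negative oocytes.

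PSMB3, an obligate subunit of the beta ring, was listed in BCB-positive oocyte 3 and in BCB-negative oocyte 2, with 1 and 7 expected counts. Its FPKM was 0, 0 and 0.17 in BCB-positive oocytes and 0, 1.44 and 0 in BCB-negative oocytes. The deposited tables hold no value of 0, so a 0 here stands for a gene that was not listed in that oocyte.

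The immunoproteasome replaces the catalytic beta subunits in immune cells and under interferon. Of its subunits, PSMB8 was not analysed here. PSMB9, which takes the place of PSMB6, had at most 6 counts in an oocyte, with 0, 0.15 and 0 FPKM in BCB-positive oocytes and 0, 0.94 and 0 FPKM in BCB-negative oocytes. PSMB10, which takes the place of PSMB7, measured 4.67, 10.3 and 12.96 FPKM in BCB-positive oocytes and 7.15, 15.2 and 15.2 FPKM in BCB-negative oocytes.

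The PSMB10 classes overlapped, with a difference of -0.42 (SD 0.63). As a share of PSMB7 plus PSMB10, PSMB10 made up 5.57%, 7.19% and 6.75% in BCB-positive oocytes and 7.86%, 11.9% and 12.2% in BCB-negative oocytes. That share, computed after the values were seen, was ordered. Of 9 leukocyte markers 5 were in the files, and they summed to 8.88, 6.04 and 3.62 FPKM in BCB-positive oocytes and to 1.80, 2.21 and 2.80 FPKM in BCB-negative oocytes. In BCB-positive oocytes most of this was CD3E, a T-cell receptor subunit, at 4.54, 4.60 and 2.37 FPKM. CD3E measured 0.90, 0.11 and 1.19 FPKM in BCB-negative oocytes and was ordered. CD14 went the other way, with 0.59, 0 and 0 FPKM in BCB-positive oocytes and 0, 1.65 and 1.02 FPKM in BCB-negative oocytes. CD79A averaged 1.73 FPKM in BCB-positive and 0.48 FPKM in BCB-negative oocytes, and PTPRC, the pan-leukocyte gene, was listed in BCB-positive oocyte 3 alone, at 0.56 FPKM. The part of other cells in the PSMB10 values was not tested.

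The ATPases of the regulatory particle were much lower than the core subunits and varied most between oocytes, with a median SD of 0.80, against 0.48 over the members. Their summed FPKM was 94.8, 104 and 222 in BCB-positive oocytes and 151, 75.0 and 114 in BCB-negative oocytes. All 5 had their highest value in BCB-positive oocyte 3. With that oocyte 4 of the 5 differences lay above 0, with a median of 0.30, and without it 4 of the 5 lay below 0, with a median of -0.18.

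PSMC3 was the most abundant ATPase, with 23.0, 44.2 and 95.6 FPKM in BCB-positive oocytes and 58.2, 33.2 and 64.6 FPKM in BCB-negative oocytes. BCB-positive oocytes were both the lowest and the highest, and the difference was -0.11 (SD 0.80). PSMC1 and PSMC5 differed by 0.53 (SD 0.58) and 0.19 (SD 0.56).

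PSMC6 measured 1.22, 0 and 9.90 FPKM in BCB-positive oocytes and 1.85, 3.51 and 0 FPKM in BCB-negative oocytes. PSMC2 measured 0.19, 1.85 and 9.49 FPKM in BCB-positive oocytes and 0.52, 1.18 and 1.75 FPKM in BCB-negative oocytes. Both stood high in BCB-positive oocyte 3, where PSMC6 had 144 counts and PSMC2 186, and were low or not listed elsewhere. Fractional PSMC2 counts in each of the 6 oocytes mean that some reads were shared out by the estimate, so its values are uncertain.

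Of the 11 non-ATPase subunits 10 had a difference above 0, with a median of 0.41, and 8 of the 11 without BCB-positive oocyte 3, with a median of 0.14. In 10 of the 11 the highest value was in that oocyte. Their summed FPKM was 412, 421 and 692 in BCB-positive oocytes, against 462, 340 and 323 in BCB-negative oocytes. In 6 of the 11 the difference exceeded the SD between oocytes, where it did for 32.4% of all genes, and 0 were ordered.

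PSMD8, a lid subunit, was the most abundant, with 98.7, 135 and 146 FPKM in BCB-positive oocytes and 115, 92.7 and 81.7 FPKM in BCB-negative oocytes. It overlapped through BCB-positive oocyte 1 alone, with a difference of 0.38 (SD 0.27). PSMD11, a lid subunit that joins lid and core, had the largest difference of the group, 0.85 (SD 0.71), with 7.43, 5.73 and 15.8 FPKM in BCB-positive oocytes and 5.65, 2.08 and 6.94 FPKM in BCB-negative oocytes. Without BCB-positive oocyte 3 it was 0.46.

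PSMD3 was the 1 gene of these 11 with a lower mean in BCB-positive oocytes. It measured 10.6, 16.3 and 12.6 FPKM in BCB-positive oocytes and 14.7, 18.4 and 15.7 FPKM in BCB-negative oocytes, a difference of -0.30 (SD 0.24). PSMD4, a ubiquitin receptor, was the lowest of the group, with 1.18, 1.80 and 4.09 FPKM in BCB-positive oocytes and 0.92, 2.03 and 1.95 FPKM in BCB-negative oocytes.

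The deubiquitinase PSMD14, which removes ubiquitin chains from substrates, averaged 109.7 ± 32.7 FPKM in BCB-positive and 85.3 ± 24.8 FPKM in BCB-negative oocytes (SD, n = 3 each), a difference of 0.36 (SD 0.43). PSMD1 and PSMD2, the large scaffold subunits of the base, differed by 0.43 (SD 0.46) and 0.32 (SD 0.28). PSMD1 was nearly constant in 5 oocytes, at 33.6 to 36.3 FPKM, and at 79.7 FPKM in BCB-positive oocyte 3, so its difference was 0.05 without that oocyte. PSMD6, PSMD7, PSMD12 and PSMD13, all of the lid, had differences of 0.43, 0.56, 0.41 and 0.70. Leaving out that oocyte gave -0.05, 0.36, 0.14 and 0.44.

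**Figure D4:**
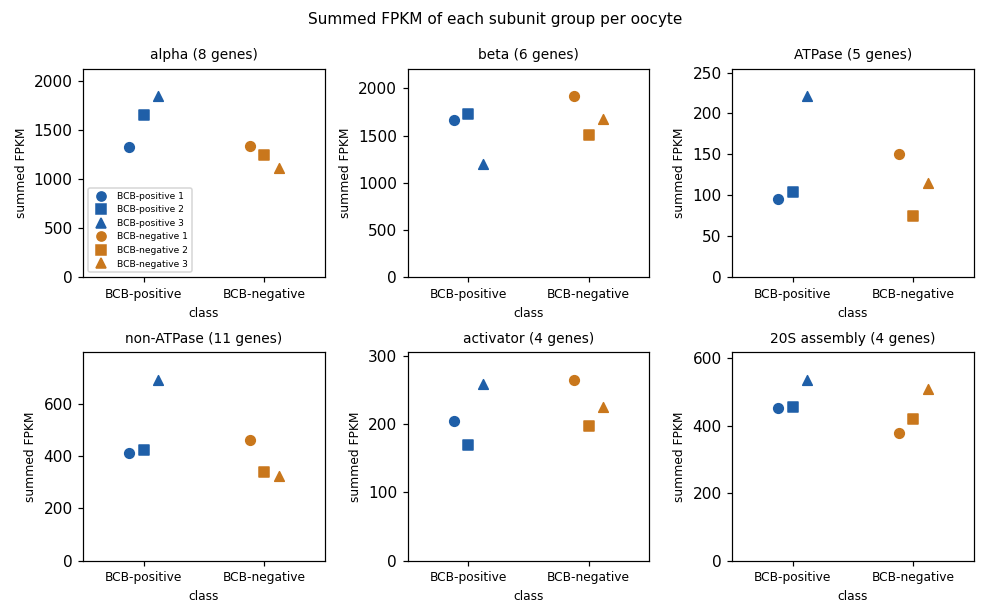
Summed FPKM of the genes of 6 subunit groups (one panel each, vertical axes from 0) in each BCB-positive (blue, left) and BCB-negative (orange, right) oocyte. BCB-positive oocyte 3 (triangle) is lowest of all for the beta subunits at 1198 FPKM and highest for the ATPases at 222 FPKM and the non-ATPase subunits at 692 FPKM.

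The activators are alternative caps that open the core without ATP. PSME1 and PSME2 form a mixed ring linked to antigen processing. PSME1 was steady, with 59.4, 78.6 and 72.1 FPKM in BCB-positive oocytes and 76.0, 63.7 and 77.7 FPKM in BCB-negative oocytes, a difference of -0.05 (SD 0.18). Its partner PSME2 varied widely, with 53.8, 14.5 and 37.7 FPKM in BCB-positive oocytes and 81.7, 67.9 and 30.8 FPKM in BCB-negative oocytes. PSME2 had the largest difference below 0 of the members, -0.82, which was smaller than its SD of 0.84, and the classes overlapped.

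PSME3, the nuclear activator, measured 64.9, 63.9 and 123 FPKM in BCB-positive oocytes and 86.2, 53.0 and 96.1 FPKM in BCB-negative oocytes. PSME4, whose product promotes histone degradation in mouse male germ cells, measured 26.4, 12.6 and 26.2 FPKM in BCB-positive oocytes and 21.7, 13.2 and 20.5 FPKM in BCB-negative oocytes. Both overlapped, with differences of 0.07 (SD 0.50) and 0.18 (SD 0.48). PSMF1, a regulator described as an inhibitor of the core, measured 16.8, 27.1 and 12.9 FPKM in BCB-positive oocytes and 20.5, 22.7 and 11 FPKM in BCB-negative oocytes, a difference of 0.06 (SD 0.52), and had fractional counts in 5 oocytes.

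The assembly chaperones PSMG1, PSMG2, PSMG3 and PSMG4 help the alpha ring form, and PSMG1 and PSMG2 work as a pair. PSMG2 measured 161, 148 and 162 FPKM in BCB-positive oocytes and 124, 70.7 and 115 FPKM in BCB-negative oocytes. The classes did not overlap and BCB-negative oocyte 2 lay lowest, with a difference of 0.64 (SD 0.31). It was 0.62 without BCB-positive oocyte 3 but 0.39, under 1.5-fold, without BCB-negative oocyte 2, and 0.54, also under 1.5-fold, with size factor scaling. PSMG2 overlaps CEP76 in the reference annotation. CEP76 averaged 5.29 FPKM in BCB-positive and 2.70 FPKM in BCB-negative oocytes. The sum of both stayed ordered, with a difference of 0.65, but CEP76 was too low for the sum to undo the order.

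PSMG1 measured 103, 139 and 219 FPKM in BCB-positive oocytes and 85.7, 70.2 and 131 FPKM in BCB-negative oocytes, a difference of 0.66 (SD 0.50), with BCB-negative oocyte 3 inside the BCB-positive range. PSMG4 leaned the other way, with 125, 105 and 83.8 FPKM in BCB-positive oocytes and 97.3, 195 and 204 FPKM in BCB-negative oocytes. Its difference was -0.60 (SD 0.47), and BCB-negative oocyte 1 lay among the BCB-positive values. Its partner PSMG3 was even, with 63.1, 64.3 and 71.2 FPKM in BCB-positive oocytes and 70.1, 82.9 and 58.4 FPKM in BCB-negative oocytes.

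PSMD9, a chaperone of the ATPase ring, measured 179, 134 and 124 FPKM in BCB-positive oocytes. It measured 197, 188 and 157 FPKM in BCB-negative oocytes, and in every oocyte lay above the 5 ATPases compared. PSMC3 came nearest, at 95.6 FPKM in BCB-positive oocyte 3, and PSMC4 was not analysed here. The PSMD9 difference was -0.32 (SD 0.23). PSMD5, another such chaperone, was near 0, with 0.16, 0.34 and 0.27 FPKM in BCB-positive oocytes and 0.90, 1.81 and 0 FPKM in BCB-negative oocytes, with fractional counts in the 5 oocytes that listed it.

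PSMC3IP, which matches the symbol pattern, acts in meiotic recombination and is no part of the proteasome. It measured 208, 136 and 157 FPKM in BCB-positive oocytes and 199, 242 and 222 FPKM in BCB-negative oocytes. The difference was -0.42 (SD 0.24), with BCB-positive oocyte 1 inside the BCB-negative range. It overlaps MLX in the reference annotation, which averaged 189 FPKM in BCB-positive and 234 FPKM in BCB-negative oocytes. PSMC3IP gene counts were whole numbers in every oocyte. Whether MLX reads enter the PSMC3IP values was not tested, so these values stay uncertain.

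BCB-positive oocyte 3 differed from the other oocytes in the balance between subunits. It had the highest value of the 6 for 24 of the 41 members compared, where it was the highest for 32.6% of all 11495 genes, and the lowest for 6 members, where the share over all genes was 18.9%. It was the highest for 15 of the 16 regulatory particle genes, 5 of the 8 alpha genes and 1 of the 5 beta genes, and the lowest for the other 4 beta genes. The median deviation of its log2 level from a gene's mean of 6 was 0.98 for the ATPases, 0.73 for the non-ATPase subunits, 0.63 for the alpha and -0.70 for the beta subunits, against 0.15 over all genes. The ratio of summed alpha to summed beta FPKM was 0.797, 0.956 and 1.55 in BCB-positive oocytes and 0.698, 0.830 and 0.664 in BCB-negative oocytes. The ratio of core to regulatory particle FPKM was 5.91, 6.46 and 3.34 in BCB-positive oocytes and 5.32, 6.64 and 6.35 in BCB-negative oocytes.

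How often that oocyte was highest or lowest also differed with the level of the genes, in bands whose bounds were chosen after the values were seen. Of the 9 members at 150 FPKM or more, BCB-positive oocyte 3 was the lowest for 5, where it was the lowest for 49.2% of all 864 genes of that level. PSMB1, PSMB4, PSMB5 and PSMB6, the beta genes lowest in that oocyte, were all among the 9. Its median deviation was -0.33 over the 9 members and -0.32 over the 864 genes. In each lower band the median of the members was above that of all genes. Of the 16 members between 50 and 150 FPKM it was the highest for 13, where the share over all 1204 genes of that level was 35.6%. Of the 12 members between 10 and 50 FPKM it was the highest for 6, against 37.3% of 3414 genes. Of the 4 members between 1 and 10 FPKM it was the highest for all 4, against 31.1% of 6013 genes. Whether depth or RNA quality in that library plays a part was not tested.

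**Figure D5:**
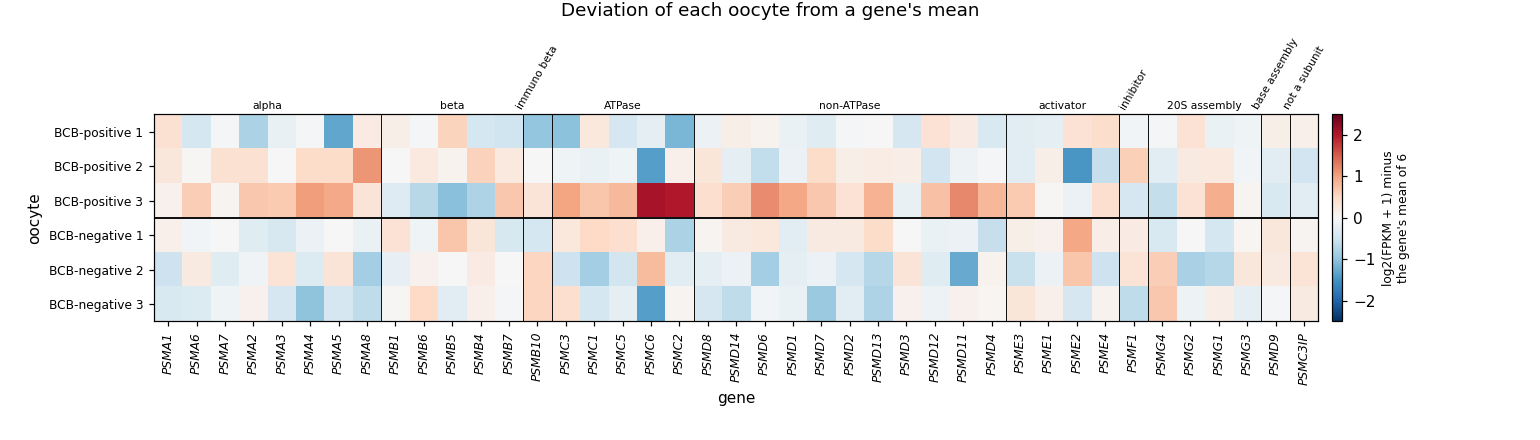
Deviation of log2(FPKM + 1) in each oocyte (rows, BCB-positive above BCB-negative) from the gene's mean over the 6 oocytes, for the 41 members compared (columns, by role). BCB-positive oocyte 3 is red across most alpha, ATPase and non-ATPase genes, with medians of 0.63, 0.98 and 0.73, and blue for 4 of the 5 beta genes.

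Transcript models were compared as shares of a gene. Of the members 15 had at least 2 listed transcripts, and 14 of these reached 5 FPKM in every oocyte. PSMC5 was the 1 gene of these 14 with an ordered share, where 13.3% of 1956 genes chosen in the same way had 1. Its class means were 24.1 percentage points apart, as seen with an ordered share in 3.53% of those genes, but its nearest oocytes of the classes were close. Its transcript NM_213983.1 held 29.9%, 20.7% and 39.4% of the gene's FPKM in BCB-positive oocytes and 17.8%, 0% and 0% in BCB-negative oocytes. In 9 of the 14 a share ranged over at least 20 points between oocytes, as in 53.9% of the 1956 genes. For PSMD14, transcript XM_003359536.3 ranged over 56.9%, 36.0% and 9.14% in BCB-positive oocytes and 51.9%, 48.0% and 82.2% in BCB-negative oocytes. For PSMA8, transcript XM_005653409.1 held 0%, 4.19% and 4.87% in BCB-positive oocytes and 0%, 0% and 81.3% in BCB-negative oocytes.

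Partners of the proteasome outside the symbol pattern were counted from a list of 24 genes, of which 19 were in the files and 17 reached a mean of 1 FPKM. By the rule used for the members, 1 of the 17 was higher and 1 lower, each 5.88%, against 5.75% and 2.66% of all genes. The median difference was 0.15, against 0.11 over all genes. NGLY1, which removes sugars from proteins and activates the factor that induces proteasome genes, was the higher, with 89.9, 122 and 181 FPKM in BCB-positive oocytes and 87.4, 79.9 and 66.4 FPKM in BCB-negative oocytes. Its difference was 0.69 (SD 0.38), and 0.43, under 1.5-fold, without BCB-positive oocyte 3. ZFAND2A, a proteasome-associated protein induced by arsenite, was the lower, with 1745, 1851 and 962 FPKM in BCB-positive oocytes and 2575, 3378 and 2116 FPKM in BCB-negative oocytes. Its difference was -0.86 (SD 0.44), and -0.56, under 1.5-fold, without that oocyte.

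SEM1, a small lid subunit, was abundant, with 549, 766 and 235 FPKM in BCB-positive oocytes and 673, 738 and 621 FPKM in BCB-negative oocytes. POMP, the chaperone that completes the core, was listed in BCB-positive oocyte 3 at 2.31 FPKM and in BCB-negative oocyte 3 at 1.66 FPKM, and was not listed in the other 4. AKIRIN2, which brings proteasomes into the nucleus, averaged 1450 FPKM in BCB-positive and 1319 FPKM in BCB-negative oocytes. ADRM1, a ubiquitin receptor, matched no gene ID and was not analysed here.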

How the data were processed

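BWA, RSEM, Cufflinks and the genome build Sscrofa10.2 are listed in the submitters' processing notes, with roles and tool versions not given in the sources used here. Per the labels' protocols, cDNA primed with poly(dT) of 24 nt was amplified by PCR, with no molecular identifiers named. The deposited files give, per gene and transcript, an expected count, which is an estimate that need not be whole, and an FPKM, which the authors scaled by transcript length and library depth and gave to 2 decimals. Genes absent from a file were set to 0.

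Symbols came from the RefSeq table of Sscrofa11.1, matched by gene ID for 13936 of 19300 genes, with no coordinates used beyond which genes overlap. Genes averaging 1 FPKM or more, 11495 in all, were compared on log2(FPKM + 1), with no test. Called genes were ordered and at least 1.5-fold apart. Counts were judged fractional beyond 0.005 of a whole number. Members and lists were chosen with earlier results of these data known. Named genes were the ordered members, the extremes of each group in level and difference, the catalytic, immunoproteasome and regulator genes, and members at 0 in an oocyte. Overlap sums, paralogue shares and level bands were added after seeing the data. Python 3.11.15, numpy 2.4.6, pandas 2.3.3, scipy 1.17.1 and matplotlib 3.10.9 were used.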

Additional observations from a re-analysis of the deposited data

How the results depend on the processing

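The rule called PSMA8, PSMA4 and PSMG2 higher and 0 members lower with a pseudocount of 0.1 FPKM, with CPM from expected counts, with the ratio of class means, with no filter, with a minimum of 5 FPKM and without PSMC3IP. Size factor scaling lost PSMG2 and a common FPKM sum added PSMA1, with 0 lower in both, and the median of all genes was 0.02 and 0.19, against 0.11 as deposited. The median of the members ran from 0.17 to 0.36 over these settings. Leaving out 1 oocyte at a time, which leaves fewer oocytes to order, gave 2 to 10 higher and 0 to 2 lower members and medians of 0.01 to 0.42. Omitting BCB-positive oocyte 1 gave 10 higher and 1 lower, against 13.7% and 6.92% of all genes. Omitting BCB-positive oocyte 2 gave 5 and 1, against 10.3% and 5.46%. Omitting BCB-negative oocyte 1 gave 6 and 2, against 11.1% and 5.53%. Omitting BCB-negative oocyte 3 gave 5 and 1, against 8.82% and 4.97%. Omitting BCB-negative oocyte 2 gave 2 and 0, with PSMG2 lost, against 8.73% and 5.01%. Without BCB-positive oocyte 3 the median of the members was 0.014, and the cause was not tested. PSMA8 and PSMA4 met the rule under every setting run, though several settings could not undo their order. Leaving out an oocyte, changing the pseudocount or taking the ratio of class means could only change the 1.5-fold part. The filters and leaving out PSMC3IP could change neither part. No paired analysis was possible because the labels tie no BCB-positive oocyte to a BCB-negative one, and no test was made. Members under 50 counts in every oocyte, such as PSMD4 and PSMB3, rest on few reads, and the reason was not tested.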

Other observations

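Related complexes were set beside the proteasome as a description. The COP9 signalosome, whose subunits resemble the proteasome lid, had a median difference of 0.51 over 7 genes, with 0 ordered in either direction, and 0.30 without BCB-positive oocyte 3. The translation factor eIF3, built in part from the same folds, had a median of 0.20 over 9 genes, and EIF3E and EIF3M were ordered and at least 1.5-fold higher, as were 5.75% of all genes. EIF3E measured 85.6, 111 and 204 FPKM in BCB-positive oocytes and 72.4, 43.1 and 58.9 FPKM in BCB-negative oocytes. EIF3M averaged 799.9 FPKM in BCB-positive and 464 FPKM in BCB-negative oocytes, and both genes met the rule without BCB-positive oocyte 3. The chaperonin TRiC, which folds actin and tubulin, had a median of 0.48 over 8 genes, with 0 ordered, and 0.03 without BCB-positive oocyte 3. That oocyte was the highest for 7 of the 8 TRiC genes, 3 of 7 COP9 genes and 3 of 9 eIF3 genes, where it was the highest for 32.6% of all genes.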
